A study of Mus musculus with 6 samples.

Results

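The genes described here are epiregulin (Ereg) and 8 other genes of the EGF family, measured in satellite cells, which serve as stem cells of skeletal muscle. Cells were sorted from 3 C57BL6 mice in which Rpt3 was knocked out in satellite cells and from 3 C57BL6 control mice, and each mouse gave 1 Agilent array. Rpt3, encoded by Psmc4, is one of the ATPases of the proteasome, which degrades proteins tagged with ubiquitin. The labels give neither the Cre line behind the knockout nor the genotype, age or sex of the mice, and 5 ng of total RNA per sample was amplified before labelling. The genes were found by name among the non-control probes: 6 ligands (Ereg, Areg, Hbegf, Btc, Tgfa and Nrg1) and 3 receptors (Egfr, Erbb2 and Erbb3). These 9 genes had 11 probes of 55681. Ereg was chosen because its adjusted p in the comparison of knockout with control cells was one of the smallest, so its difference is a description with no test. The other 8 genes joined it as members of the family. Of the 9, 5 were bright enough to test, among 19293 tested features. Those were Ereg, Hbegf, Nrg1, Egfr and Erbb2, while Areg, Btc, Tgfa and Erbb3 were too dim.

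EGF family ligands are made as membrane-anchored precursors, and proteases called sheddases cut them free. The released factors bind ERBB receptors, which pair up, phosphorylate each other and start the RAS-MAPK and PI3K-AKT cascades. EGFR takes up epiregulin, amphiregulin, HB-EGF, betacellulin and TGF-alpha, and neuregulins bind ERBB3 and ERBB4. ERBB2 has no known ligand of its own and serves as the partner of the other receptors, and ERBB3 has a weak kinase and signals through such a partner. In muscle, amphiregulin from regulatory T cells is known to act on satellite cells after injury, and neuregulin from nerve endings is known to act through ERBB2 on developing muscle spindles.

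An array reports each transcript through a probe of 60 bases, and these sequences, read from the scanner files, show which stretch of each transcript was measured. The Ereg probe lies at position 4013 of transcript NM_007950, and the first 30 of its bases are shown because Ereg gave the difference that chose it. The Areg probe is that of the dim neighbour of Ereg on chromosome 5. In the Nrg1 probe, and in the Egfr probe that matches only the short transcript NM_007912, a reading frame runs open through 19 codons to a stop codon, in capitals. Each of these probes reports the transcripts that hold that end, and no others of its gene. The other Egfr sequence lies upstream in the same transcript, in a part that the long transcript shares. Coordinates are those of the files, in build mm9.
Ereg, chr5:91522553-91522612, plus strand: gatagtcatgtaccttgacatagtgaagga
Areg, chr5:91570090-91570149, plus strand: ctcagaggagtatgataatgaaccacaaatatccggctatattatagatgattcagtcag
Nrg1, chr8:32928500-32928559, minus strand: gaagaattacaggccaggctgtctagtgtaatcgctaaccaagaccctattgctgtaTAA
Egfr short transcript, chr11:16787172-16787231, plus strand: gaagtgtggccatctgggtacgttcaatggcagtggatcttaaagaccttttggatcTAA
Egfr shared part, chr11:16783556-16783615, plus strand: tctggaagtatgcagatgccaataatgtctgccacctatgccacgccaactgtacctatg

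The arrays differed in ways that touch these values. Between 44.2% and 57.9% of probes were well above background on the knockout arrays, and between 53.03% and 53.6% on the control arrays. Knockout 3 had the lowest share and stood apart on the first principal component (29.5% of the variance). Knockout 1 and 2 lay in row 1 of the slide, and knockout 3 with the 3 controls in row 2, so values within row 2 or with row as a block rest on knockout 3 alone against the 3 controls. Such a p takes the spread of the single knockout array to equal that among the other arrays of the fit. Psmc4, the targeted gene, had a lower signal on every knockout array than on any control array, with a log2 difference of -0.92 (SE 0.23; limma, adjusted p = 0.408). Which exons of Psmc4 were deleted is not in the labels, so its probe may lie outside them. Of the 13 satellite cell markers, Myod1 was above background on all arrays, and Pax7 on 2 knockout and all 3 control arrays. Myf5, which encodes an early myogenic factor, was above background on all 3 control arrays and on 0 knockout arrays, at least 2.001-fold lower (adjusted p = 0.183), with a log2 difference of -0.37 under normexp, another background correction.

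Ereg, measured by 1 probe with 1 spot per array, was dim in the knockout cells and well above background in the controls. Its normalized log2 signal, the log2 processed signal minus that of the array's 75th percentile, was -3.81, -3.63 and -3.25 on knockout arrays 1, 2 and 3. On control arrays 1, 2 and 3 it was 0.15, -0.20 and -0.82. Every control lay far above every knockout, and the controls spread from -0.82 to 0.15. In processed signal units this was 7.92, 6.53 and 6.71 on the knockout arrays and 99.98, 77.3 and 46.3 on the controls. The spot was well above background on 0 of 3 knockout and 3 of 3 control arrays. Knockout cells averaged -3.56 ± 0.29 and control cells -0.29 ± 0.49 (SD, n = 3 each), a log2 difference of -3.27 with a standard error of 0.30 and a 95% interval of -3.98 to -2.57.

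Because the knockout signal is within background, the size of the Ereg difference is a bound. For it, a knockout value was raised to the lowest normalized signal of any probe well above background on that array, where that was higher. Those lowest signals were -3.15, -2.84 and -1.99 on knockout arrays 1, 2 and 3, so the floor was highest on knockout 3. By this measure Ereg was at least 5.17-fold lower in knockout cells. The log2 difference was -1.001 with normexp background correction, which lifts dim spots, and -2.96 for knockout 3 alone against the controls. Fewer cells that express a gene and less of its RNA per cell cannot be told apart in such bulk samples. By adjusted p Ereg stood at 0.0682, level with Olfr591, an olfactory receptor gene, and the next gene, Inpp4a, stood at 0.114.

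**Figure D1:**
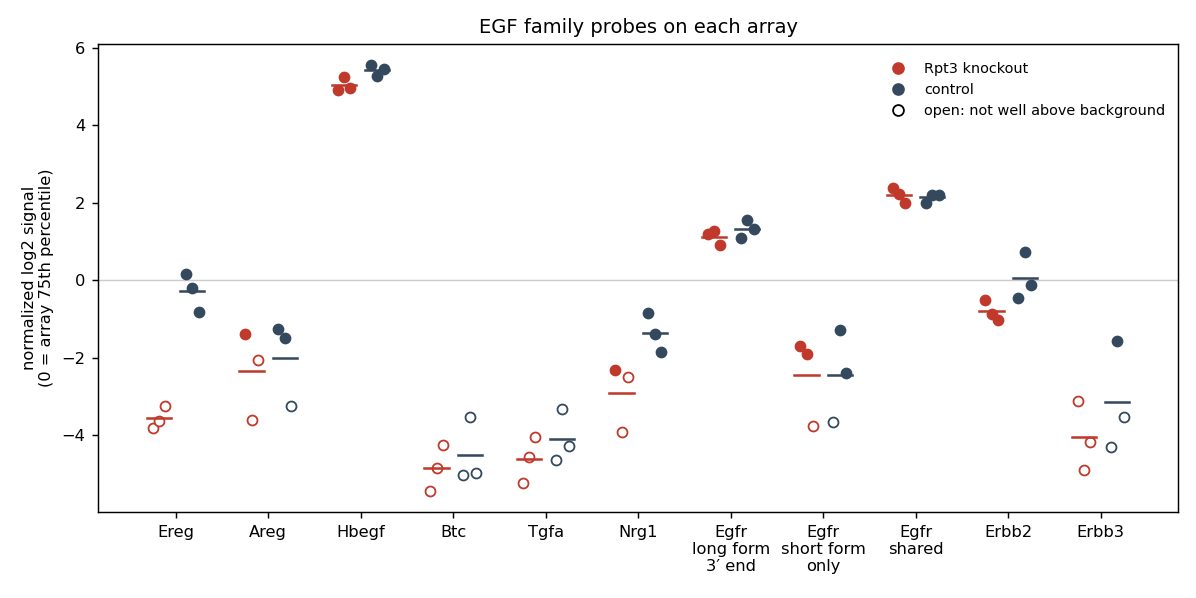
Normalized log2 signal of the 11 EGF family probes on each array, with knockout arrays in red left of control arrays in dark blue, bars at the group means and 0 at the array's 75th percentile. Filled points are well above background and open points are not. The 3 Ereg points of the knockout arrays are open and lie between -3.81 and -3.25, and those of the controls are filled and lie between -0.82 and 0.15.

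Nrg1, which encodes neuregulin 1, was dimmer on every knockout array than on any control array, but did not pass the threshold. Its normalized log2 signal was -2.31, -3.91 and -2.49 on knockout arrays 1, 2 and 3, against -0.85, -1.39 and -1.84 on control arrays 1, 2 and 3. Knockout 2 was the dimmest array and control 1 the brightest. The probe was well above background on 1 of 3 knockout arrays and on 3 of 3 controls, so 2 of the knockout values lie within background. The log2 difference was -1.54 (SE 0.46, 95% interval -2.60 to -0.48), with an unadjusted p of 0.0103 and an adjusted p of 0.495 by limma. Nrg1 ranked 397 of the 19293 features by p. Its difference was -0.38 with normexp and -1.13 for knockout 3 alone against the controls (adjusted p = 0.418 with row as a block and 0.349 within row 2). Nrg1 transcripts without the stretch shown above were not measured.

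Hbegf, which encodes the membrane-anchored factor HB-EGF, was bright on every array. Its normalized log2 signal was 4.91, 5.24 and 4.95 on knockout arrays 1, 2 and 3, against 5.55, 5.27 and 5.46 on control arrays 1, 2 and 3. The highest knockout value, that of knockout 2, almost met the lowest control value, that of control 2. The log2 difference was -0.40 (SE 0.21, 95% interval -0.89 to 0.10) and did not pass (limma, adjusted p = 0.834). The interval includes 0 as well as differences larger than the one measured, so a small fall was not detectable with this number of arrays. With knockout 3 as the sole knockout array the difference was -0.48 (adjusted p = 0.360 with row as a block and 0.385 within row 2).

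The remaining 3 ligands were near or under background. Areg, which encodes amphiregulin, had -1.38, -3.60 and -2.05 on knockout arrays 1, 2 and 3, against -1.26, -1.48 and -3.26 on control arrays 1, 2 and 3. It was well above background on 1 knockout and 2 control arrays, the groups overlapped, and it was not tested. Btc, which encodes betacellulin, was well above background on 0 of 6 arrays, with signals from -5.43 to -4.25 in knockout and from -5.03 to -3.52 in control cells. Tgfa, which encodes TGF-alpha, has 10 spots per array. Its mean signals ran from -5.24 to -4.05 in knockout and from -4.65 to -3.33 in control cells, and 1 spot in all, on control 2, was well above background. Levels of Btc and Tgfa were not detectable at this brightness.

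Egfr had overlapping groups in all its probes. This receptor for Ereg, Areg, Hbegf, Btc and Tgfa was measured by 3 probes. The probe for the part shared by both transcripts stood for the gene and had 2.38, 2.22 and 1.999 on knockout arrays 1, 2 and 3, against 2.01, 2.21 and 2.21 on control arrays 1, 2 and 3. Knockout 1 was the highest array and knockout 3 the lowest, with the controls between them. The difference was 0.06 (SE 0.21, 95% interval -0.43 to 0.55; limma, adjusted p = 0.986), and it was -0.14 for knockout 3 alone against the controls (adjusted p = 0.750 with row as a block and 0.763 within row 2). A probe near the 3′ end of the long transcript NM_207655, printed in 10 spots per array, had 1.21, 1.27 and 0.91 on knockout arrays 1, 2 and 3, against 1.098, 1.55 and 1.33 on control arrays 1, 2 and 3. Its difference was -0.20 (unadjusted p = 0.417 in a fit with every probe), so the differences of the 2 tested Egfr probes lay on opposite sides of 0. The probe of the short transcript, which encodes a receptor form without the kinase, was well above background on 2 knockout and 2 control arrays. It had -1.69, -1.91 and -3.77 on knockout arrays 1, 2 and 3, against -3.66, -1.29 and -2.39 on control arrays 1, 2 and 3, with group means of -2.46 and -2.45, and was not tested.

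Erbb2, the receptor that acts as a partner of the others, was dimmer in knockout cells on average. Its normalized log2 signal was -0.51, -0.87 and -1.03 on knockout arrays 1, 2 and 3, against -0.45, 0.72 and -0.12 on control arrays 1, 2 and 3. The groups did not overlap, but knockout 1 and control 1 nearly met, and control 2 was the brightest by a wide margin. The probe has 9 or 10 usable spots per array, whose SD within an array was 0.09 to 0.18, more than the gap between knockout 1 and control 1. The log2 difference was -0.85 (SE 0.33, 95% interval -1.62 to -0.08), with an unadjusted p of 0.0342 and an adjusted p of 0.644 by limma. Without control 2 it was -0.52 (adjusted p = 0.963), and with normexp it was -0.46. For knockout 3 alone against the controls it was -1.08 (adjusted p = 0.318 with row as a block and 0.385 within row 2). Erbb3, the neuregulin receptor, was well above background on control 2 alone. Its signals ran from -4.89 to -3.11 in knockout and from -4.30 to -1.58 in control cells and overlapped.

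**Figure D2:**
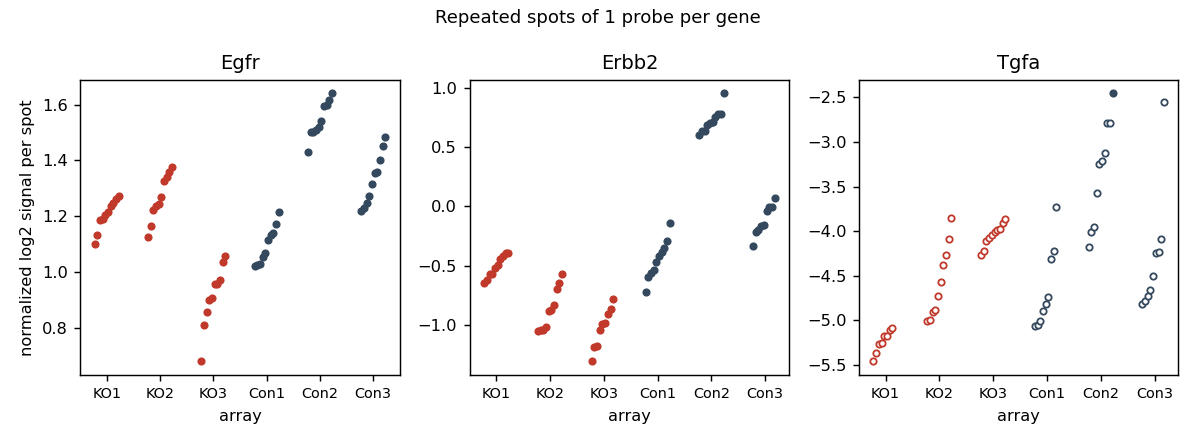
Each spot of the 3 family probes that are printed 10 times per array, Egfr at the 3′ end of its long transcript, Erbb2 and Tgfa, as normalized log2 signal, sorted by value within each array, with knockout arrays (red) left of control arrays (dark blue). Open points are not well above background. Erbb2 spots of control 2 all lie above those of the other arrays, and all but 1 of the Tgfa spots are open.

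Counted over the 5 tested genes, 4 had lower means in knockout cells and Egfr had a mean near that of the controls. At an unadjusted p under 0.05, 3 of 5 were lower (Ereg, Nrg1 and Erbb2) and 0 higher, where 4.29% of all tested features were lower, 2.82% higher and 7.11% either. In 4 of 5 the groups did not overlap with the knockout lower, where this held for 5.72% of all features, and in 0 of 5 was the knockout higher throughout, where 4.9% of all features were. At an adjusted p under 0.05, 0 of the 5 passed, as did 0% of all 19293 features. An exact permutation of 3 arrays against 3 cannot go below 0.1. These counts carry no weight as support: Ereg was chosen by this comparison, and Ereg and Nrg1 were tested only because they were above background on all controls. The median log2 difference of all tested features was 0.04. Without knockout 3, which stood apart, the log2 differences were -3.43 for Ereg, -1.75 for Nrg1, -0.35 for Hbegf, 0.16 for Egfr and -0.74 for Erbb2, and 2 of the 5, Ereg and Nrg1, had an unadjusted p under 0.05. With slide row as a block, 1 of the 5 had an unadjusted p under 0.05, and that was Ereg.

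**Figure D3:**
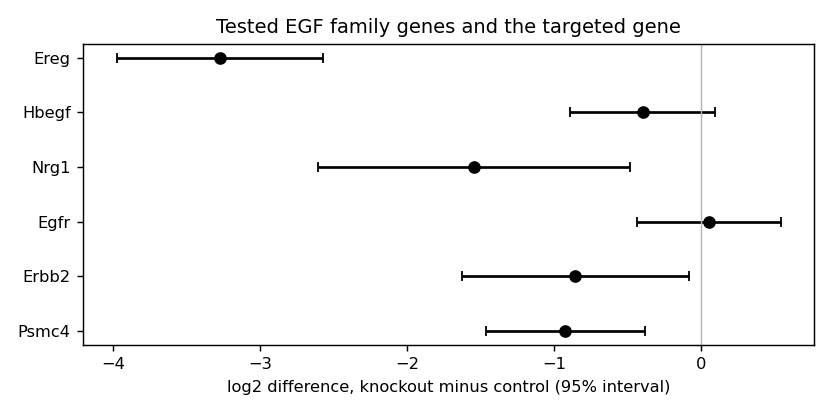
Log2 difference, knockout minus control, of the 5 tested EGF family genes and of the targeted gene Psmc4, with 95% intervals from limma. The Ereg interval runs from -3.98 to -2.57, and it is a description because Ereg was chosen by its adjusted p in this comparison. The intervals of Hbegf and Egfr include 0.

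Summed signals of 3 marker lists separated the groups, but for 2 of these lists 1 or 2 bright genes carried the separation. These sums are over each list's probes, relative to the array's 75th percentile on a linear scale. The sum of 13 satellite cell markers was 139 to 153 on the knockout arrays and 166 to 231 on the controls. Without Cxcr4, the brightest of them, it was 61.9 to 80.6 in knockout and 71.04 to 80.1 in control cells and overlapped. Of the 13 markers, 7 had lower and 6 higher means in knockout cells. Beside Myf5, the markers Calcr, Fgfr4 and Cxcr4 had lower means, with log2 differences of -1.04, -0.90 and -0.65. By limma their unadjusted p were 0.00595, 0.00951 and 0.0275, and their adjusted p were 0.433, 0.484 and 0.612. At an unadjusted p under 0.05, 4 of the 13 were lower and 0 higher. Among all tested features, 4.29% were lower and 2.82% higher. Myf5 was tested only because it was above background on all controls. Pax7 and Myod1 differed by 0.17 and 0.00. The sum of 9 markers of fibroblasts and fibro-adipogenic cells, all above background on every array, was 598 to 650 in knockout and 745 to 1258 in control cells. Without the collagen genes Col1a1 and Col1a2 it was 176 to 204 in knockout and 194 to 276 in control cells and overlapped, and 6 of the 9 had lower and 3 higher means in knockout cells. The 5 measured red blood cell markers summed to 4.99 to 10.01 in knockout and 1.18 to 3.798 in control cells. Without Hba-a1 and Hbb-bt, the brightest of these, the sum was 0.368 to 0.731 in knockout and 0.143 to 0.345 in control cells and did not overlap. The sums without the brightest genes were chosen after the values were seen. The part of these markers in the differences of Ereg, Nrg1 and Erbb2 was not tested.

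Sums of the other marker lists overlapped between the groups. For 10 macrophage markers they were 31.4 to 36.1 in knockout and 26.7 to 34.9 in control cells, with Cd163 never above background. For 10 neutrophil markers they were 568 to 902 in knockout and 650 to 678 in control cells, nearly all of it from Csf3r. Without Csf3r they were 1.505 to 16.8 in knockout and 1.67 to 4.14 in control cells, and all 5 tested neutrophil genes had higher knockout means, with a median difference of 0.74 and 0 at an unadjusted p under 0.05. The neutrophil gene S100a8, named after its values were seen, had 1.72, 2.59 and -4.09 on knockout arrays 1, 2 and 3, against -2.50, -1.91 and -2.13 on control arrays 1, 2 and 3, so knockout 1 and 2 lay above every control and knockout 3 below. For 9 measured T and innate lymphoid markers they were 32.4 to 55.5 in knockout and 35.0 to 40.7 in control cells, with Cd8a and Il7r never above background. Endothelial sums, over 9 markers, were 32.2 to 81.7 in knockout and 29.8 to 106 in control cells. Control 1 gave the 106, and controls 2 and 3 gave 37.6 and 29.8. All 9 endothelial genes had higher knockout means, with a median difference of 0.40 and 0 at an unadjusted p under 0.05. Among all tested features, 44.2% had lower knockout means. Schwann cell sums, over 8 markers, were 8.61 to 17.3 in knockout and 9.98 to 14.4 in control cells. Epithelial sums, over 7 markers, were 2.99 to 7.98 in knockout and 3.06 to 6.48 in control cells, with Krt15 never above background.

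Ereg lies in a row of related ligand genes on chromosome 5, and the 3 other genes tested around it had log2 differences between -0.41 and 0.54. Within 500 kb of the Ereg probe, 18 probes carried 16 names, and 4 were tested. Epgn, which encodes the EGFR ligand epigen, lies at -58.4 kb from Ereg, on its upstream side, and was above background on 1 knockout and 1 control array, with a log2 difference of -0.06. Mthfd2l, an enzyme gene of mitochondrial folate metabolism, lies at -72.3 kb and differed by -0.41 (limma in a fit with every probe, adjusted p = 0.933). Areg lies 47.5 kb and Btc 264 kb after Ereg, and these dim genes had differences of -0.34 and -0.33. The other tested neighbours, the chemokine genes Cxcl1 and Cxcl2, were named after their values were seen. Cxcl1 differed by 0.41 (adjusted p = 0.942) and Cxcl2 by 0.54 (adjusted p = 0.979). Btc was above background on 0 arrays. Areg was above background on knockout 1 and on controls 1 and 2. Of the other arrays, knockout 3 was at -2.05, knockout 2 at -3.60 and control 3 at -3.26.

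**Figure D4:**
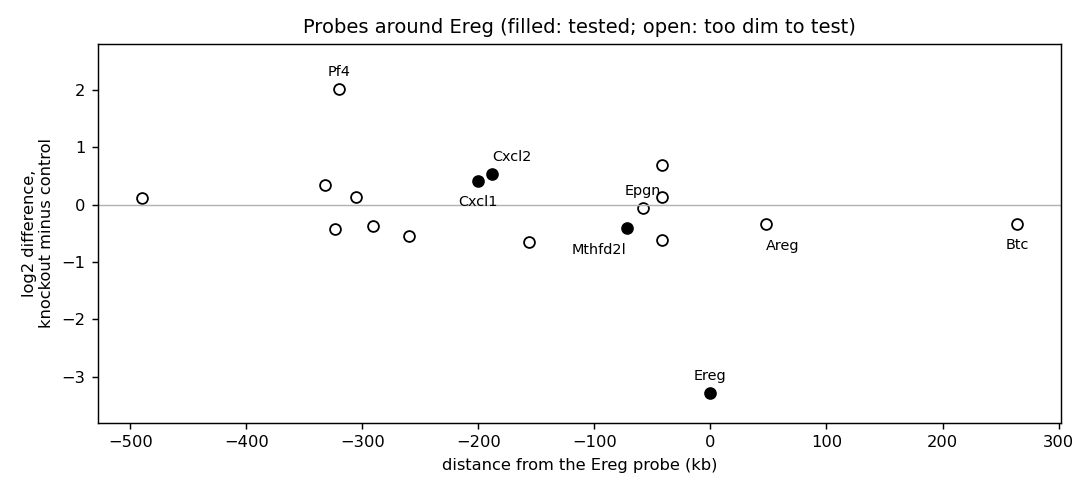
Log2 difference, knockout minus control, of every probe within 500 kb of the Ereg probe, by distance from it in kb. Filled points were tested and open points were too dim. Ereg is at -3.27. The highest point, Pf4 at 2.02, was named after its value was seen. It was above background on 2 knockout arrays and 1 control array, with an SD of 2.91 among the knockout arrays.

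The signals of 125 features, 0.648% of those tested, had a Pearson r with Ereg over 0.9 across the 6 arrays. These points share the 2 groups, so the r of any gene that separates them strongly is high. Since Ereg was chosen by this comparison, genes taken for a high r with it differ in the same direction. Their differences and adjusted p are thus descriptions with no test. The 3 most alike were Otud7b, which encodes a deubiquitinase (r = 0.999), 8430431K14Rik (r = 0.993) and Prr15 (r = 0.993). Otud7b was above background on all 6 arrays, with 0.38, 0.47 and 0.56 on knockout arrays 1, 2 and 3, against 1.68, 1.61 and 1.42 on control arrays 1, 2 and 3. Its log2 difference was -1.10 (SE 0.20; limma, adjusted p = 0.252). 8430431K14Rik differed by -1.77, or -0.54 with normexp, above background on 1 knockout array and 3 controls. Prr15 was above background on 0 knockout and 3 control arrays. The fold between its group means was 9.52, lower in knockout (limma, adjusted p = 0.159). Its knockout signals lay above the array floors, so none was raised. They were still not well above background, so the size of this fold is uncertain. With normexp the log2 difference of Prr15 was -1.41. Of the family, Nrg1 had r = 0.84 with Ereg, Hbegf 0.82, Erbb2 0.70 and Egfr -0.36.

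Of the ligands outside the 9 genes, Nrg4 and Nrg2 were bright enough to test and did not differ past the threshold. Nrg4, a neuregulin that binds ERBB4, had -3.74, -2.04 and -0.18 on knockout arrays 1, 2 and 3, against -2.21, -1.40 and -2.10 on control arrays 1, 2 and 3. Its knockout values thus reached below and above every control, and the difference was -0.08 (SE 0.79; limma, adjusted p = 0.993). For knockout 3 alone it was 1.72 (adjusted p = 0.301 with row as a block and 0.325 within row 2). Nrg2, a neuregulin that binds ERBB3 and ERBB4, differed by -0.02 (SE 0.28, adjusted p = 0.995), with 1.26, 1.30 and 2.06 on knockout arrays 1, 2 and 3, against 1.60, 1.37 and 1.71 on control arrays 1, 2 and 3. For knockout 3 alone it was 0.50 (adjusted p = 0.324 with row as a block). Egf and Epgn were above background on 1 knockout and 1 control array each, and Nrg3 on 0. Erbb4, the remaining ERBB receptor, was above background on 0 of 6 arrays.

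The sheddases and their partners, which free the ligands, showed no call. All 9 genes of this list were tested, and their median log2 difference was -0.21, beside 0.04 over all features. At an unadjusted p under 0.05, 0 were lower and 0 higher, beside 4.29% lower and 2.82% higher among all tested features. Rhbdf1 and Rhbdf2 encode the iRhoms, pseudoproteases that bring the sheddase ADAM17 to the cell surface. Rhbdf1 differed by -0.48 (adjusted p = 0.789) and Rhbdf2 by 0.67 (adjusted p = 0.836), so these differences lay on opposite sides of 0. With slide row as a block they were -0.73 for Rhbdf1 and 0.055 for Rhbdf2. For 15 of 16 measured genes of the adaptors and the RAS-MAPK cascade, 1 was lower and 0 higher at an unadjusted p under 0.05, with a median of -0.10. That gene was Gab1, a docking protein under the receptors, with 3.46, 3.47 and 3.49 on knockout arrays 1, 2 and 3, against 3.76, 4.32 and 4.01 on control arrays 1, 2 and 3. The knockout arrays of Gab1 were closely alike and below every control (difference -0.56, SE 0.22, adjusted p = 0.657). Map2k2, a MAPK kinase, differed by 0.62 (adjusted p = 0.834), and by 0.23 on the same probe with slide row as a block. Within slide row 2 another probe stood for Map2k2 and differed by -0.11. In the PI3K, AKT and STAT list, 0 of 11 tested genes were lower and 0 higher at an unadjusted p under 0.05, with a median of -0.18. Stat5b, a transcription factor of this branch, differed by -0.47 (adjusted p = 0.739), by -0.14 with the mean of its probes and by -0.73 with slide row as a block.

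Among inhibitors of ERBB receptors and MAPK, 14 of 16 were tested, and the median was -0.20. At an unadjusted p under 0.05, 1 was lower and 0 higher, beside 4.29% lower and 2.82% higher among all tested features. Cblb, a ubiquitin ligase that acts on activated receptors, had 0.44, 0.34 and 0.32 on knockout arrays 1, 2 and 3, against 1.15, 1.05 and 1.25 on control arrays 1, 2 and 3. All its knockout values lay well below the controls, with a difference of -0.78 (SE 0.20; limma, unadjusted p = 0.00411, adjusted p = 0.403). Spry1, an inhibitor of growth factor signalling known from quiescent satellite cells, differed by -0.55 (adjusted p = 0.769), and by -0.94 with slide row as a block. All 20 genes that are transcribed soon after growth factor stimulation were tested, and 1 was lower and 2 were higher at an unadjusted p under 0.05, with a median of -0.08. Plaur, which encodes the urokinase receptor, had 3.38, 3.59 and 3.31 on knockout arrays 1, 2 and 3, against 2.77, 2.38 and 2.53 on control arrays 1, 2 and 3, a difference of 0.87 (SE 0.22, adjusted p = 0.403). Fosl1, which encodes an AP-1 subunit, differed by 0.74 (SE 0.25, adjusted p = 0.577), with groups that did not overlap. The lower gene, Ccnd1, which encodes cyclin D1, was named after its value was seen. It differed by -1.10 (SE 0.41, adjusted p = 0.619), and knockout 1 at 2.57 stood just above control 1 at 2.56. Without knockout 3 the differences were -0.56 for Gab1, -0.76 for Cblb, 0.93 for Plaur and 0.93 for Fosl1. With slide row as a block Fosl1 differed by 0.36, with an unadjusted p of 0.212. In each of these lists 0 genes passed at an adjusted p under 0.05.

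**Figure D5:**
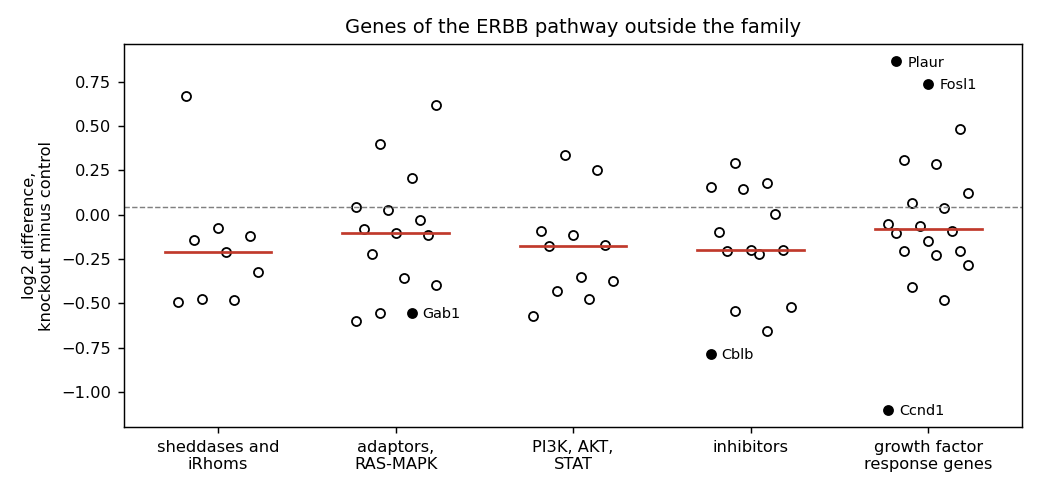
Log2 difference, knockout minus control, of each tested gene in 5 lists of the ERBB pathway, with red bars at the list medians and a dashed line at 0.04, the median of all tested features. Filled points had an unadjusted p under 0.05 and none passed after adjustment. The list medians lie between -0.21 and -0.08.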

How the data were processed

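Each array's scanner file holds linear intensity values that the authors deposited. The processed signal had already been corrected for background by Agilent's Feature Extraction software (10.7.1.1 per the file headers, but 9.5.1.1 per the submitters' processing notes). The deposited value table holds linear intensity with the same quantiles on every array and served as an alternative. Values were put on the log2 scale and centred on each array's 75th percentile over non-control spots. Flagged spots were left out, spots of a probe were averaged, and 0 spots were saturated. Testing required a probe to be well above background on every array of either group, and the brightest tested probe stood for a gene. Group differences were tested in R 4.3.3 with limma 3.58.1 (lmFit, eBayes; with the data.table package, version 1.17.8, for reading), 2-sided, with Benjamini-Hochberg adjustment over all 19293 features and a threshold of 0.05. Standard errors of log2 differences had a median of 0.27, and the number of arrays limits the precision.

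Symbols came from the files, and those of 27235 probes were checked through transcript accessions against RefSeq gene names of assembly GRCm38.p6, used for names alone. The script was tested on simulated data. The members and lists were chosen with earlier results of these data known. Named are all 9 members with every probe, Psmc4, up to 4 members past the threshold or otherwise the 2 with the smallest p from each pathway list, lists of 5 or fewer in full, the 3 genes most like Ereg by Pearson r, and neighbours of Ereg that are of the family, past the threshold or the 2 nearest on each side. Some genes that these rules take are not reported here. Alternatives were another background correction, normalization, filter, probe choice, source of values, moderation, block, and each array left out in turn.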

Additional observations from a re-analysis of the deposited data

How the results depend on the processing

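Over all features, where 0 passed, 1 passed with normexp, 1 with quantile normalization, 1 in the deposited table, 2 with median scaling, 3 with trend and robust moderation and 41 within slide row 2. An ordinary 2-sample test called 0, with 1063 at an unadjusted p under 0.05. At an unadjusted p under 0.05, where 1371 features were called, 2949 were called within row 2 and 3219 with slide row as a block. Of the family, 1 gene passed with median scaling and 1 with trend and robust moderation. It was Ereg both times, at -3.24 (adjusted p = 0.0481) and -3.27 (adjusted p = 0.0411). Because Ereg was chosen by this comparison, these values describe it and are no test. The Ereg difference lay between -3.54 and -1.001 over all alternatives, with adjusted p up to 0.553. The family genes with an unadjusted p under 0.05, 3 in number, were 1 with probes above background on all 6 arrays, 1 with slide row as a block, 1 within row 2, 2 without a filter on dim probes, 2 by the ordinary 2-sample test, 4 with normexp, 4 with trend and robust moderation, and 2 to 3 with single arrays left out. The genes so counted changed: with probes above background on all 6 arrays it was Erbb2 alone, and by the ordinary 2-sample test Ereg and Hbegf. Hbegf, at an unadjusted p of 0.101 by limma, also joined with normexp (0.0234) and with trend and robust moderation (0.0330). Ereg, Nrg1, Nrg4, Prr15, 8430431K14Rik and Myf5 have no value with probes above background on all 6 arrays.

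Of 519 gene values over 25 genes, 499 kept their direction and side of the threshold, 18 changed sign and 2 came to pass. Egfr was -0.070 with the mean of its probes, -0.14 with slide row as a block, -0.14 within row 2, and -0.035 to 0.16 with single arrays left out. Nrg4 was 0.074 with normexp, 1.72 both within row 2 and with slide row as a block, and -0.99 to 0.79 with single arrays left out. Nrg2 was 0.0075 with median scaling, 0.069 with the mean of its probes, 0.50 both within row 2 and with slide row as a block, and -0.29 to 0.12 with single arrays left out. Map2k2 was -0.11 within row 2, where another probe stood for it, and 0.23 on its reported probe with slide row as a block. The cause of the other changes was not tested.

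The labels state no pairing of the samples. Deviations of same-numbered arrays from their group means correlated at 0.07, -0.02 and 0.09, beside -0.09 to 0.03 for arrays of unlike number. These correlations cannot tell whether same-numbered mice were paired. With the replicate block Ereg stayed at -3.27 (adjusted p = 0.214), and 0 features and 0 members passed.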
